A study of Solanum lycopersicum with 10 samples.

Results

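Among the complementary DNA clones spotted on a tomato array, 81 of the 2212 whose names begin with cLEC had a higher ratio in leaves of antisense Rboh plants than in wild type leaves, with and without wounding, and changed little on wounding itself. These 81 clones were chosen by the measured values. On each of the 10 arrays the median was set to 0, and the mean of each group was taken. A clone entered when mutant minus wild type was at least 0.8 on the log2 scale (1.74-fold) in control leaves and again in leaves of wounded plants. In addition, its wounding change in wild type had to lie between -1 and 1, and the average of its wounding changes in both genotypes between -0.5 and 0.5. The size and direction of the genotype difference are therefore what defined the clones, and they are given below as a description. Calls and SEs from a linear model (limma) are also given for these contrasts. They come from the values that chose the clones, so they are no evidence for the difference.

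Each array compared RNA of a tomato leaf sample with a common pool, to which all samples of the study contributed. The wild type groups were leaves of unwounded plants (3 arrays, replicates 1 to 3) and of wounded plants, labelled systemic wounded (2 arrays, replicates 1 and 2). The mutant groups carried an antisense Rboh gene and were likewise unwounded (2 arrays) or systemic wounded (3 arrays, replicates 1 to 3). The unwounded mutant arrays are numbered 2 and 3 in their titles, used here, but 1 and 2 in their descriptions. Sources used here do not give the plants' age, the time after wounding, the promoter of the antisense gene or the number of lines. Nothing states that arrays of a group came from separate plants, so p-values and SDs measure the spread between arrays, which may be technical. Every value below is a log2 ratio of a leaf sample to the pool unless it is called a difference or a fold. In a ratio from whole leaves, fewer cells of a type and less RNA per cell cannot be told apart.

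As background, Rboh genes encode respiratory burst oxidase homologs, NADPH oxidases of the plasma membrane that pass electrons from NADPH in the cell to oxygen outside it. The superoxide so formed is converted to hydrogen peroxide, a signal in defence, wounding and growth, and calcium binding and phosphorylation switch the enzymes on. An antisense gene makes RNA complementary to the target's messenger RNA and lowers its level. In tomato, an injured leaf starts systemin and jasmonate signalling that also reaches leaves that were not injured. In the tomato clone collections the prefix cLEC was used for a library made from callus, the unorganised tissue that grows from plant explants in culture. A clone from that library can stem from any gene that callus expresses, many of which leaves express too.

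The files do not pair clones with genes. Of the 81 clone names, 0 matched the RefSeq gene table, so neither a function nor a sequence can be given, and clones of the same gene cannot be recognised. The level of the antisense target was not analysed here for the same reason. As a check of the tissue, the rows named for carbonic anhydrase and for a chlorophyll a/b binding protein, both abundant in green leaves, are on the array, but a ratio to a pool of leaves shows no absolute level. Over the 10 arrays carbonic anhydrase lay between -0.28 and 0.17, and the chlorophyll a/b binding protein between -1.15 and 0.55.

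Which way the ratio runs is not settled, because the labels name no dyes. Some arrays of different genotypes ran against each other. Over all 11153 rows tested, the correlation of wild type control replicate 3 was -0.33 with replicate 1 of the wounded mutant and -0.43 with its replicate 3. Between arrays of the same group the correlations were positive, from 0.19 to 0.43. Turning the sign of every array would leave all these correlations as they are, so they do not bear on the direction. Directions here are for sample over pool. With the sign turned, all 81 clones were lower in the mutant, every difference below changes sign, and counts of higher clones become counts of lower ones.

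All 81 clones lay below the pool in both wild type groups and above it in both mutant groups, by group mean. Over all rows tested, 30.0% lay below it in both wild type groups and 32.7% above it in both mutant groups. The wild type leaves stood farther from the pool: the median clone was at -0.86 in wild type controls and -0.71 in wounded wild type, and at 0.41 in mutant controls and 0.43 in the wounded mutant. All samples contributed to the pool, so the distances of both genotypes from it are not free of each other. Why the distances differed was not tested. With the limits mirrored, 60 rows of all libraries were lower in the mutant, with medians of -0.57 in the mutant and 0.51 in wild type. For the 6 cLEC rows among them the medians were -0.50 and 0.52. For 79 of the 81, the mean distance from 0 was larger in wild type than in the mutant. Both wild type means were below -0.5 for 68 clones, and both mutant means above 0.5 for 6.

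**Figure D1:**
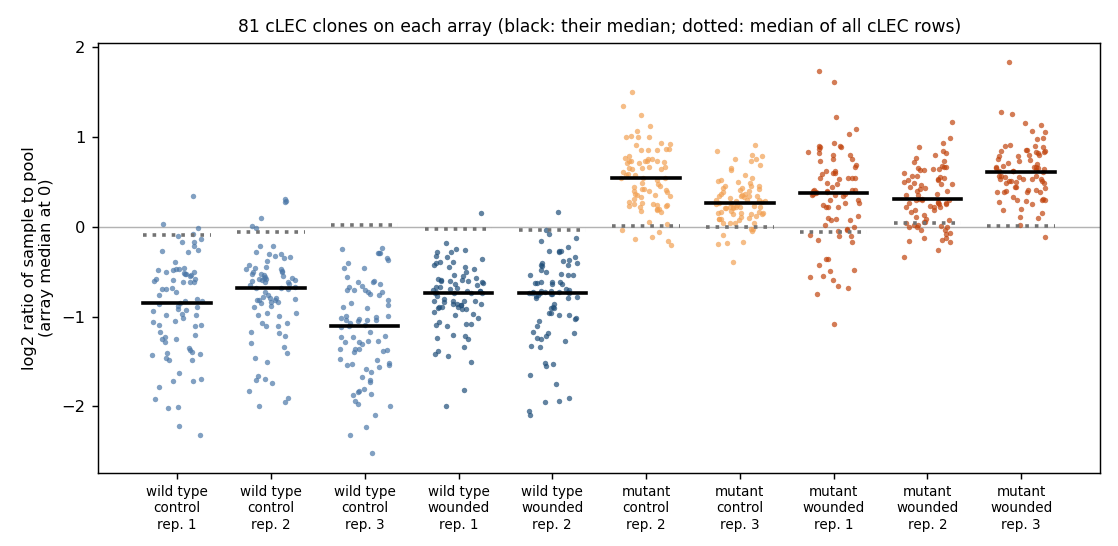
Log2 ratio of sample to pool (vertical axis) of the 81 clones on each of the 10 arrays (horizontal axis), 1 point per clone, with their median as a black line and the median of all 2212 cLEC rows as a dotted line. The black lines run from -1.11 to -0.68 on the wild type arrays and from 0.27 to 0.61 on the mutant arrays, and the dotted lines stay between -0.09 and 0.04.

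Array by array, the median of the 81 clones was -0.85, -0.68 and -1.11 on wild type control replicates 1, 2 and 3. It was -0.73 on wild type systemic wounded replicate 1 and -0.74 on replicate 2. On mutant control replicates 2 and 3 it was 0.54 and 0.27, and on mutant systemic wounded replicates 1, 2 and 3 it was 0.37, 0.31 and 0.61. The medians of the wild type arrays were thus all below those of the mutant arrays. Wild type control replicate 3 was the lowest and also had the widest interquartile range over all rows, 0.77, beside 0.39 to 0.52 on the other arrays. All 81 clones were below 0 on that array, and 76 to 80 on the other wild type arrays. On the mutant arrays 60 to 80 clones were above 0. Over all cLEC rows, 48.6% to 59.6% lay below 0 on the wild type arrays and 43.5% to 55.7% above 0 on the mutant arrays. Of the 192 clones of other libraries within the limits, 87.5% to 100% lay below 0 on the wild type arrays. The counts for the 81 thus follow from the limits that chose them.

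The genotype difference of the 81 clones had a median of 1.24 in unwounded leaves (2.36-fold), from 0.85 to 2.75. In wounded plants the median was 1.11 (2.16-fold), from 0.81 to 2.70. Both differences were at least 2-fold for 46 clones and at least 4-fold for 4. The limits chose these values, so the medians describe the clones and cannot be set against other rows as evidence.

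**Figure D2:**
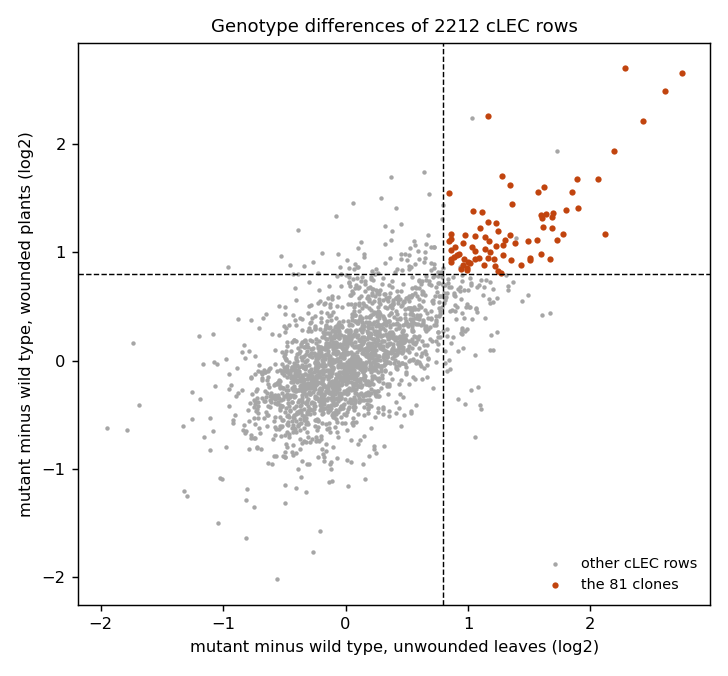
Mutant minus wild type in unwounded leaves (horizontal axis, log2) against the same difference in wounded plants (vertical axis, log2) for all 2212 cLEC rows, with the limit of 0.8 as dashed lines. The 81 clones (coloured) fill the upper right corner, and 4 of them lie beyond 2 on both axes; the 4 grey points in that corner exceeded a wounding limit.

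The clone with the largest mean difference was cLEC20L17. On wild type control replicates 1, 2 and 3 it stood at -2.01, -1.66 and -1.87, and on wild type systemic wounded replicates 1 and 2 at -1.82 and -1.52. In the mutant it stood at 1.50 and 0.30 on control replicates 2 and 3, and at 1.22, 0.68 and 1.06 on wounded replicates 1, 2 and 3. All 5 mutant arrays lay above all 5 wild type arrays, and the spread was mainly between the mutant controls. The difference was 2.75 (SE 0.34, 6.71-fold) unwounded and 2.66 (SE 0.34, 6.30-fold) in wounded plants. The mutant control value rested on which array was kept: without replicate 2 the unwounded difference was 2.15, and without replicate 3 it was 3.35.

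Clone cLEC6H17 had the widest gap between the genotypes. It stood at -2.32, -1.96 and -2.10 in wild type controls and at -1.99 and -2.09 in wounded wild type. Mutant control replicates 2 and 3 gave 1.07 and -0.10, and the wounded mutant 0.79, -0.01 and 0.56. The mutant arrays fell into values near the pool and values well above it, while the wild type arrays were close together. Its lowest mutant array was 1.86 above its highest wild type array. The difference was 2.61 (SE 0.35) unwounded and 2.49 (SE 0.35) in wounded plants.

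Clones cLEC16F07 and cLEC11O9 completed the group of 4 with at least 4-fold in both treatments, cLEC11O9 being named after its values were seen. For cLEC16F07 the wild type controls stood at -1.79, -1.71 and -1.58 and the wounded wild type at -1.10 and -1.94. Its mutant controls stood at 0.85 and 0.32, and the wounded mutant at 1.73, 1.16 and 0.65. All mutant arrays again lay above all wild type arrays. It also had the most positive wounding change in the mutant among the 81, 0.60, which was 0.33 without mutant control replicate 3 and 0.32 without replicate 1 of the wounded mutant. For cLEC11O9 the wild type controls averaged -1.75 ± 0.30 (SD, n = 3), and the wounded wild type -1.75 ± 0.44 (SD, n = 2). Its mutant controls averaged 0.67 ± 0.80 (SD, n = 2), and its wounded mutant arrays 0.46 ± 0.17 (SD, n = 3).

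**Figure D3:**
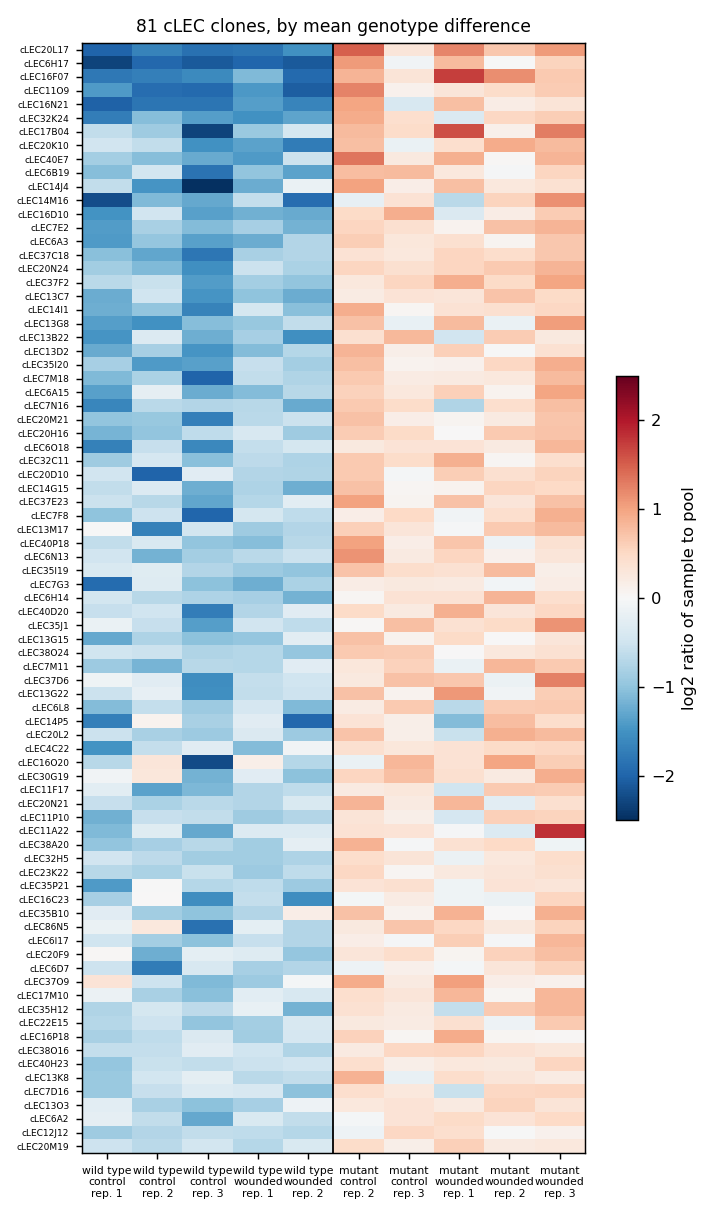
Log2 ratio of sample to pool for each of the 81 clones (rows, ordered by mean genotype difference, largest at the top) on the 10 arrays (columns, the black line separates 5 wild type from 5 mutant arrays). Blue is below the pool and red above it; the wild type side is deeper in colour than the mutant side, and mutant systemic wounded replicate 1 holds 20 clones below 0.

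Near the limit of 0.8 the clones were not set apart from the rest. Just inside, cLEC38A20 had differences of 1.27 unwounded and 0.81 wounded, and cLEC11A22 had 1.25 and 0.83. Just outside, cLEC14H03 fell short by 0.0004 in unwounded leaves, with 1.44 in wounded plants, and cLEC30M13 had 0.80 and 0.86 and fell short by 0.005. At a limit of 0.6 in place of 0.8, 153 cLEC clones were within the rule, and at a limit of 1 there were 46. The value of cLEC11A22 in wounded mutants came from a single array. Its wounded mutant replicates 1, 2 and 3 stood at -0.04, -0.33 and 1.83, and without replicate 3 its wounded difference was 0.15. The wounded difference of cLEC38A20 was 0.48 without replicate 1 of the wounded wild type, and its unwounded one was 0.82 without mutant control replicate 2. The unwounded difference of cLEC30M13 was 0.35 without wild type control replicate 3.

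The limits on wounding removed few clones. Of the 2212 cLEC rows, 177 reached 0.8 in unwounded leaves and 157 in wounded plants, and 85 did so in both. The wounding limits left 81 of these. The shared clones were 48.0% of the unwounded list and 54.1% of the wounded list, beside 43.8% and 47.1% over all rows tested.

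Whether the genotypes' arrays overlapped follows from the same differences and is a description as well. Unwounded, 77 of the 81 clones had both mutant arrays above all 3 wild type arrays, beside 15.1% of all rows tested. In wounded plants it was 73, beside 16.7% of all rows. Over all 10 arrays, 62 clones had all 5 mutant arrays above all 5 wild type arrays, beside 5.10% of all rows. In the 19 others, the lowest mutant array was most often wounded replicate 1 (11 clones), and the highest wild type array was most often control replicate 2 (9 clones). The strictest pattern, all mutant arrays above 0 and all wild type arrays below 0, was met by 36 clones, beside 2.28% of all rows tested and 81 of the 192 clones of other libraries within the limits.

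With limma, 4 group means per row were estimated for all 11153 rows, and p-values were adjusted over all of them by the Benjamini-Hochberg method. At an adjusted p under 0.05, 17 of the 81 clones were called higher in the unwounded mutant (0.359% of all rows), 14 in the wounded mutant (0.421% of all rows) and 68 over both treatments (3.08% of all rows). These are the contrasts that chose the clones, so nothing is read from the shares. Of the 81, 9 were called in both single treatments (0.188% of all rows). With trend and robust moderation of the variances the counts were 1 unwounded and 4 wounded, and with a replicate block by title number they were 5 and 5. Counts over all rows under these settings are not given here, so nothing is read from the falls.

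Leaving out single arrays moved these counts, and the count of higher calls over all rows moved with them. Without mutant control replicate 2 none of the 81 was called unwounded by limma, 59 had an unadjusted p under 0.05, and 6 rows in all were called. Without mutant control replicate 3 it was 4 of 13 rows called. Dropping replicate 1 of the wild type controls left 7 of 15, and dropping their replicate 3 left 2 of 6. Dropping replicate 2 or 3 of the wounded mutant, or either wounded wild type array, left 10 of 27 to 30 rows. In wounded plants, dropping either mutant control left 8 of 32 rows called. Dropping replicate 1, 2 or 3 of the wounded mutant left 3 of 7, 4 of 17 and 2 of 5. Dropping replicate 1 of the wounded wild type left 1 of 3, and dropping its replicate 2 left 0 of 1, with 53 and 59 of the 81 at an unadjusted p under 0.05. Over both treatments, 31 of 110 and 43 of 163 rows were left when mutant control replicate 2 or 3 was dropped, and 45 of 159 when replicate 3 of the wounded mutant was. Dropping replicate 1 or 2 of the wounded wild type left 28 of 75 and 42 of 137. The arm left with a single array in some of these fits is assumed to vary like the other groups. For the counts at an unadjusted p, the share over all rows is not given here, and nothing is read from them.

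To read the difference on arrays the choice had not used, the rule was applied anew to 9 arrays and the chosen cLEC clones were read on the array left out. Each time 71 to 89 clones met the limits. They shared 66 to 74 clones with the 81, which is 81.5% to 91.4% of the 81 and 80.9% to 95.8% of the newly chosen. Of the 81, 30 met the limits in all 10 of these choices. The fewest belonged to cLEC16O20, which met them in 4.

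On a wild type array left out, the newly chosen clones had a median percentile between 6.18 and 7.88 among all rows tested. Between 86.5% and 97.3% of them lay below 0 there, beside 48.6% to 59.6% of all cLEC rows. The wild type arrays therefore showed low values for clones picked without them. On a mutant array left out, the median percentile was 86.0 and 78.6 for control replicates 2 and 3 and 72.9, 79.5 and 89.7 for wounded replicates 1, 2 and 3. The share above 0 on wounded replicate 3 was 98.6%, beside 50.3% of all cLEC rows, whereas on wounded replicate 1 it was 60.0%, beside 43.5%.

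**Figure D4:**
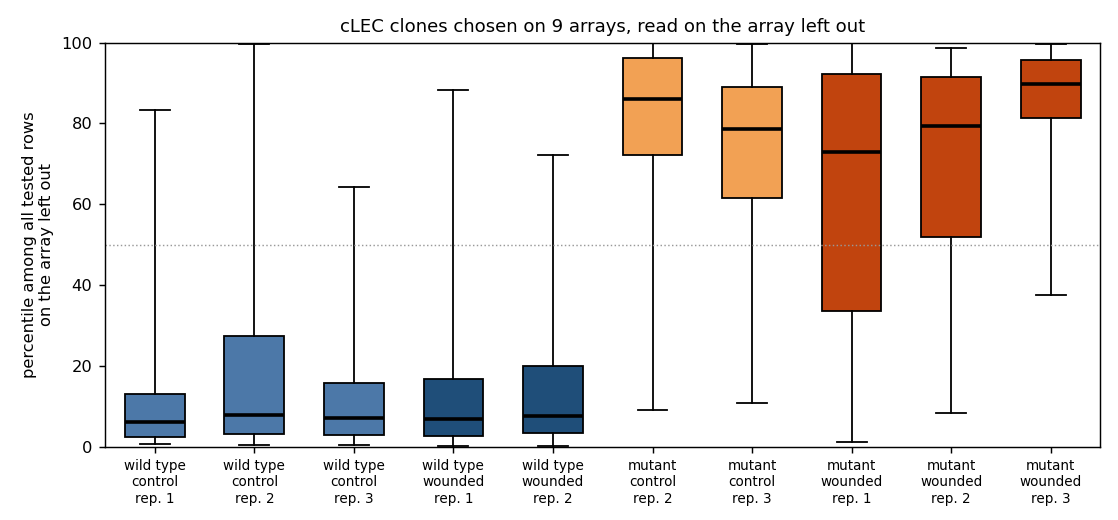
Percentile among all 11153 rows tested (vertical axis) of the cLEC clones chosen on the other 9 arrays, read on the array left out (horizontal axis). Boxes span the quartiles, the black line is the median and whiskers reach the lowest and highest clone, and the dotted line marks the middle of all rows; wild type medians lie between 6.18 and 7.88 and mutant medians between 72.9 and 89.7, with the widest box on mutant systemic wounded replicate 1.

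Mutant systemic wounded replicate 1 split the clones. On it 20 of the 81 were below 0, 60 above and 1 at 0. On mutant systemic wounded replicate 2 it was 14 below 0, and on replicate 3 it was 1. Among the 192 clones of other libraries within the same limits, 15 (7.81%) were below 0 on replicate 1, against 24.7% of the 81. On mutant systemic wounded replicate 2 it was the other way round, with 50 of the 192 below 0 (26.0%) against 17.3% of the 81, and on mutant control replicate 3 it was 15.1% against 9.88%. On mutant systemic wounded replicate 1, 56.2% of all cLEC rows lay below 0 and 48.3% of all rows of other libraries, so the cLEC rows as a whole sat lower there. The median of all cLEC rows on it was -0.06. The part that this shift had in the split was not tested.

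The 20 clones, grouped only after this was seen, had medians of -0.39, 0.55 and 0.63 on mutant systemic wounded replicates 1, 2 and 3. The other 61 had 0.49, 0.26 and 0.56. The rule sets a minimum for mutant minus wild type over group means, so values on the arrays of a treatment are not free of each other. On arrays of the other groups the 20 were lower on some and higher on others. Medians of the 20 and the 61 were 0.36 and 0.65 on mutant control replicate 2, and -0.96 and -0.72 on replicate 2 of the wounded wild type. They were 0.33 and 0.24 on mutant control replicate 3, and -0.89 and -1.23 on wild type control replicate 3. By plate of origin the 20 included 4 of the 7 clones of plate 7 and 3 of the 4 of plate 11, and 0 of the 5 of plate 37 and of the 4 of plate 40.

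**Figure D5:**
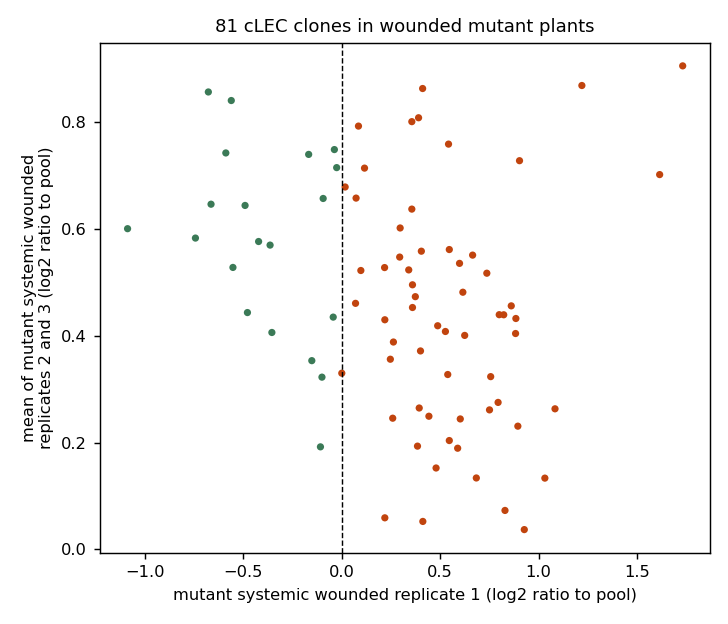
Log2 ratio to the pool on mutant systemic wounded replicate 1 (horizontal axis) against the mean of replicates 2 and 3 (vertical axis) for the 81 clones, with 0 on replicate 1 as a dashed line. The 20 clones left of the line (green) lie above 0 on the vertical axis, as do the other 61 (red).

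Deviations of an array from its group's mean do not enter the rule, and they were shared between some arrays. Over the 81 clones, the deviations of mutant systemic wounded replicate 1 correlated with those of wild type systemic wounded replicate 2 at Pearson's r = 0.56 and with those of mutant control replicate 2 at 0.40. Over all rows tested the values were 0.35 and 0.39, and over all cLEC rows 0.34 and 0.33. Over the clones of other libraries within the same limits they were 0.48 and 0.53. The sharing was thus not particular to the 81 clones. These are correlations across clones of the same arrays and the same pool, and clones are not independent replicates. With 2 arrays in a group the deviations mirror each other, so wild type systemic wounded replicate 1 gave -0.56.

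The clones scattered more within groups than most rows. Their SD within groups, pooled over the 4 groups, had a median of 0.42, from 0.16 to 0.91, beside 0.33 over all rows tested. It was above the median of all rows for 62 of the 81, and for 148 of the 192 clones of other libraries within the same limits. The steadiest was cLEC38O24, at -0.50, -0.54 and -0.74 in wild type controls and -0.71 and -0.96 in wounded wild type. It stood at 0.65 and 0.63 in mutant controls and at 0.00, 0.27 and 0.39 in the wounded mutant. Both genotypes were narrow and did not overlap. The next was cLEC38O16, from the same plate, with a pooled SD of 0.17 and differences of 0.86 and 1.03.

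At the other end, cLEC14P5 had a pooled SD of 0.91. It stood at -1.71, 0.09 and -0.81 in wild type controls and at -0.28 and -1.95 in wounded wild type, and at 0.35 and 0.15 in mutant controls. The wounded mutant gave -1.09, 0.76 and 0.44. Its arrays overlapped between the genotypes, and its wounded difference was 1.99 without wild type systemic wounded replicate 1, 0.31 without replicate 2 and 1.72 without mutant systemic wounded replicate 1. Clone cLEC16O20 had a pooled SD of 0.85, with wild type controls at -0.69, 0.31 and -2.24. Its unwounded difference of 1.21 was 0.53 without wild type control replicate 3 and 0.71 without mutant control replicate 3. For both clones single arrays set the size of the difference.

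Wounding moved the 81 clones little, as the rule demanded. The wounding change had a median of 0.11 in wild type, from -0.67 to 0.83, and of 0.01 in the mutant, from -0.54 to 0.60. Within those limits, 54 clones were higher and 27 lower in leaves of wounded wild type plants, and 44 higher and 37 lower in those of wounded mutant plants. The lowest mutant wounding changes were those of cLEC16D10, -0.54, and cLEC6B19, -0.53. That of cLEC16D10 was -0.29 without replicate 1 of the wounded mutant and -0.32 without mutant control replicate 3. For cLEC6B19 the mutant controls stood at 0.76 and 0.79 and the wounded mutant at 0.26, -0.04 and 0.53, so these groups did not overlap.

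The genotype difference was larger in unwounded leaves for 56 of the 81 clones and larger in wounded plants for 25. Of the 192 clones of other libraries, 88 had the larger difference unwounded. The change of the difference, wounded minus unwounded, had a median of -0.14 over the 81, and 71 of them lay within 0.5 of 0. No clone passed limma's test of this interaction at an adjusted p under 0.05 (0% of all rows tested), and 0 of the 81 had an unadjusted p under 0.05. The rule limits this value as well, and missing the threshold does not show that the differences were alike.

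The single change past 1 was that of cLEC20K10, 1.10 (SE 0.52). Its wild type controls stood at -0.48, -0.61 and -1.52, and its wounded wild type at -1.34 and -1.75. Its mutant controls stood at 0.76 and -0.18 and its wounded mutant at 0.41, 0.94 and 0.79. The wounded wild type was at the low end and the wounded mutant at the high end of their genotypes, with overlap in both. Without mutant control replicate 3 the change was 0.63, and with quantile normalization it was 1.64. Clone cLEC6H14 followed with 0.70. In the other direction cLEC14J4 had -0.95 (SE 0.69) and cLEC20M21 had -0.73. For cLEC14J4 the wild type arrays were far apart, at -0.62, -1.47 and -2.52 in controls and at -1.25 and -0.16 in wounded plants. Its change of -0.95 was -1.50 without replicate 1 of the wounded wild type and -0.41 without its replicate 2. It was -0.46 without wild type control replicate 3 and -0.53 without mutant control replicate 2. Its wounded difference of 1.17 was 0.63 without replicate 1 of the wounded wild type. The change of cLEC20M21 was -0.45 when mutant control replicate 2 was dropped and -0.49 when replicate 3 of the wild type controls was.

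The clone names give a library plate, a well row and a well column, which the rule did not use. All 81 names could be read so, as could 2208 of the 2212 cLEC names. The 81 came from 19 of the 42 plates, from all 16 well rows and from all 24 well columns. Each of the 14 plates with at least 50 cLEC rows on the array held at least 1 of them. The share of a plate's rows among the 81 was highest in this group of plates for plate 20, with 10 of 121 (8.26%), followed by plate 13 with 9 of 129 (6.98%). It was lowest for plate 30, with 1 of 99 (1.01%). Plate 6 gave the most clones, 11 of 242 (4.55%). The left part of the plates, columns 1 to 12, held 37, and columns 13 to 24 held 44.

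Of all pairs among the 81, 4 sat in adjoining wells of a plate. These were cLEC6H17 with cLEC6I17, cLEC6A2 with cLEC6A3, cLEC20M21 with cLEC20N21, and cLEC35I19 with cLEC35I20, all named after their positions were read. Their mean genotype differences were 2.55 and 0.99 in the first pair, 0.90 and 1.53 in the second, 1.30 and 1.05 in the third, and 1.21 and 1.43 in the fourth. The values were farthest apart in the first pair. Adjoining pairs among all cLEC rows were not counted, and grouping by plate or well was not tested. Positions on the printed array were not analysed here.

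Beside the rest of the array, 3.66% of the cLEC rows and 2.15% of the rows of other libraries (192 of 8941) were within the limits, 2.45% of all rows. The list of 192 had median genotype differences of 1.07 unwounded and 1.11 wounded. Array by array its median was near that of the 81 on some arrays and not on others. On wild type control replicate 3 it was -1.10, against -1.11, and on replicate 1 of the wounded wild type -0.72, against -0.73. The medians were farthest apart on wild type control replicate 1, at -0.40 against -0.85, where the 192 were nearer the pool. On replicate 1 of the wounded mutant they were at 0.61 against 0.37, where the 81 were nearer. These differences between lists were not tested.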

How the data were processed

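The table held 11347 rows and 10 columns of log2 ratios, 1 per array, each mapped to its sample by the column name. Per the labels, channel 2 held the leaf sample and channel 1 the pool. Of the deposited log2 values, between 99.67% and 99.99% on each array matched a ratio of 3 decimals within 2e-05. Array medians over the rows tested lay between -0.01 and 0.07. The direction of the ratio and any scaling between arrays are unknown, and sources used here name neither a background correction nor an image program. The 193 rows marked as failed and 1 blank were left out, and each array's median over the remaining 11153 rows was set to 0. Spot signals were not analysed here, and precision is limited by how many arrays each group has.

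The rule, the group means and all counts were computed with pandas 2.3.3. The linear model used limma 3.58.1 in R 4.3.3 (lmFit and eBayes, 4 group means, all 10 arrays, 6 residual degrees of freedom, two-sided, Benjamini-Hochberg over all rows). SEs are limma's. The fit was also run on simulated data with noise drawn independently for each array. Deviations were shared between some of the real arrays, so the simulation says nothing about error rates in these data. Clones were named by rank: the 2 largest mean differences and gaps, smallest and largest spreads, extreme interactions, values nearest the limit of 0.8 and extreme mutant wounding changes. The members and lists were chosen with earlier results of these data known. Alternatives were no centring, quantile and scale normalization, failed rows kept, array weights, trend and robust eBayes, replicate blocks, other limits and each array left out. Plots were drawn with matplotlib 3.10.9.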

Additional observations from a re-analysis of the deposited data

Results flagged for a closer look

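Spots that did not pass quality control entered no comparison above and carry no clone name. Of these 193 rows, 7 met the same limits on the genotype difference and on wounding (3.63%, beside 2.45% of the rows tested). With the sign turned these 7 were lower in the mutant.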

How the results depend on the processing

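The number of cLEC clones within the limits was 153 at a minimum difference of 0.6 and 46 at 1. It stayed within 1.5 times of 81 under no centring (81), quantile normalization (72), scale normalization (80), failed rows kept (81), group medians in place of means and no limit on wounding, and with each array left out (71 to 89). The 17 clones called in unwounded leaves fell to 1 when eBayes used a trend and robust moderation, to 5 with a replicate block by title number, to 6 with a replicate block by description number, and ranged from 0 to 21 with an array left out. In wounded plants the 14 rose to 29 with array weights, and fell to 4 under that moderation and to 5 with a replicate block by title number, and ranged from 0 to 17 with an array left out. Over both treatments 68 became 28 to 70 with an array left out. For array weights, replicate blocks and that moderation, counts over all rows are not given here, so nothing is read from the changes. The unwounded and wounded genotype differences of the 15 named members gave 420 values, and none changed sign. Of these values, 393 moved by less than the median SD within groups. Leaving out a wounded array cannot move the unwounded difference, nor an unwounded array the wounded one. Part of the 393 was thus unmoved by construction. The members were chosen for positive differences above a minimum, which made sign changes unlikely. These counts therefore do not measure how stable the differences are. Of 168 values of the other differences and changes rerun, 158 moved by less than that SD, some again because the array left out did not enter them. Among the 168, 1 changed sign. The wounding change of cLEC20K10 in the mutant, 0.42, was -0.044 without mutant control replicate 3 and 0.89 without replicate 2. The cause was not tested. Whether the replicate numbers pair the arrays is not settled. Of 12 same-numbered pairs by title, 3 had deviations correlated above 0.1, and of 13 by description, 5. By description number, 5 of the 10 arrays had their highest correlation outside their group with an array of the same number, and by title 0. Deviations within a group sum to 0 and so are not free of each other, and these counts cannot decide the question. Alternatives for the SD within groups, the named clones and, in part, the overlap counts were chosen after seeing the data.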

Other observations

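Under mirrored limits, 6 of the 2212 cLEC rows were lower in the mutant (0.271%), beside the 81 that were higher. Of the 8941 rows of other libraries, 54 were lower (0.604%), beside 192 higher. With the sign turned these counts trade places. By library, among the 17 with at least 50 rows on the array, cLEC had the third highest share of clones within the limits. Above it were cTOC with 7 of 84 rows (8.33%) and cTOB with 4 of 80 (5%). Next below it were cTOA with 3 of 86 (3.49%) and cLEM with 26 of 779 (3.34%). The median mean genotype difference over all cLEC rows was 0.02. These shares were not tested.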
